A study of Homo sapiens with 8 samples.

Results

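Ribosome biogenesis genes encode the proteins that make ribosomes, as distinct from the ribosomal proteins that end up in them. RNA polymerase I transcribes the large precursor of the ribosomal RNAs in the nucleolus, small nucleolar ribonucleoproteins (snoRNPs) modify and help cut it, and assembly factors build it with ribosomal proteins into a small and a large subunit. These genes are expressed in every growing cell and are known targets of the transcription factor MYC. A list of 39 such genes was taken, and each gene is represented by the probe set that names it alone and has the highest mean over all 8 arrays. Of the 39 genes, 34 had such a probe set, out of 19775 genes on the array. The probe sets of NOP56, DKC1, BOP1 and PPAN also name other genes, and GNL3 is unnamed in the probe table used, so these 5 genes were not analysed here.

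The 34 genes were followed in A549, a human lung adenocarcinoma line, on Affymetrix U133 plus 2.0 arrays. The groups were 3D treated (hanging-drop spheroids given 10 ng/ml TNF with 2 ng/ml TGFβ, renewed to make 2 rounds of 48 h), 3D control (spheroids without the cytokines), 2D treated (monolayers given the same cytokines) and 2D control (monolayers without them), with 2 arrays in each of the 4 groups. The cytokines are used to drive the epithelial-mesenchymal transition (EMT). All groups share the parental line, no gene was altered, and the whole is a model of 1 cell line. The methods call the arrays of a pair technical duplicates and the deposited design text calls them biological replicates, so p-values measure the spread between these arrays, which may be technical. Values are log2 expression values, on which a difference of 1 is a 2-fold change, and the lowest value on the scale is 2.23. A gene is called when limma's adjusted p, over all 54613 probe sets tested, is under 0.05. All 34 genes lay above the array median in all 4 groups on at least 1 array of each.

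As a check of the samples, 4 of 5 epithelial markers of A549 were lower in 3D treated than in 3D control arrays, and of 4 genes taken as a check of the cytokine response SNAI2 and ZEB2 were higher (ZEB2 by 4.08 on the log2 scale, adjusted p = 0.003, limma), while VIM (adjusted p = 0.084) and ICAM1 (adjusted p = 0.54) were not called. In 2D treated against 2D control arrays 0 of the 5 and 0 of the 4 were called. The mean log2 value of 7 markers of leukocytes, endothelium, red cells and liver was 3.16 to 3.25 in 3D treated, 3.6 to 3.64 in 3D control, 3.61 to 3.79 in 2D treated and 3.61 to 3.73 in 2D control arrays. CD14, a monocyte marker, was the one of these called lower in 3D treated arrays, at 6.05 and 5.28, against 8.68 and 8.36 in 3D control arrays, and it was also well above the floor in monolayers, at 8.55 to 9.69. PTPRC, the pan-leukocyte marker, lay at 2.23 to 2.30 on all arrays. The 75th percentile of the array was 6.74 and 6.84 in 3D treated arrays, against 6.95 and 6.96 in 3D control arrays, and the part of CD14 or of this percentile in the results was not tested.

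In spheroids given TNF and TGFβ, 9 of the 34 ribosome biogenesis genes fell and 0 rose. The genes that fell were the polymerase I subunits POLR1B and POLR1C, the large subunit assembly factors NOP16, MRTO4, RRS1 and WDR12, the snoRNP proteins NHP2 and NOP58, and the small subunit factor NOP14. Their log2 differences ran from -1.23 for NOP16 to -0.49 for NOP14. Over all genes 10.8% were called lower and 5.53% higher in this comparison, and over the 12661 brighter genes, which exceed the median of their array on 2 arrays or more, 16.8% were lower and 8.42% higher, against 26.5% lower among the 34. The median difference of the 34 genes was -0.29, against -0.12 for brighter genes, and 29 of the 34 values were negative. The median of brighter genes was thus negative too, and their share of negative values is not given here. At an unadjusted p under 0.05, 18 of the 34 were lower and 1 was higher, against 20.7% lower and 10.5% higher among all genes. All genes include dim ones, and the share of brighter genes at this unadjusted threshold is not given here. In such bulk arrays fewer expressing cells and less RNA per cell cannot be told apart.

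**Figure D1:**
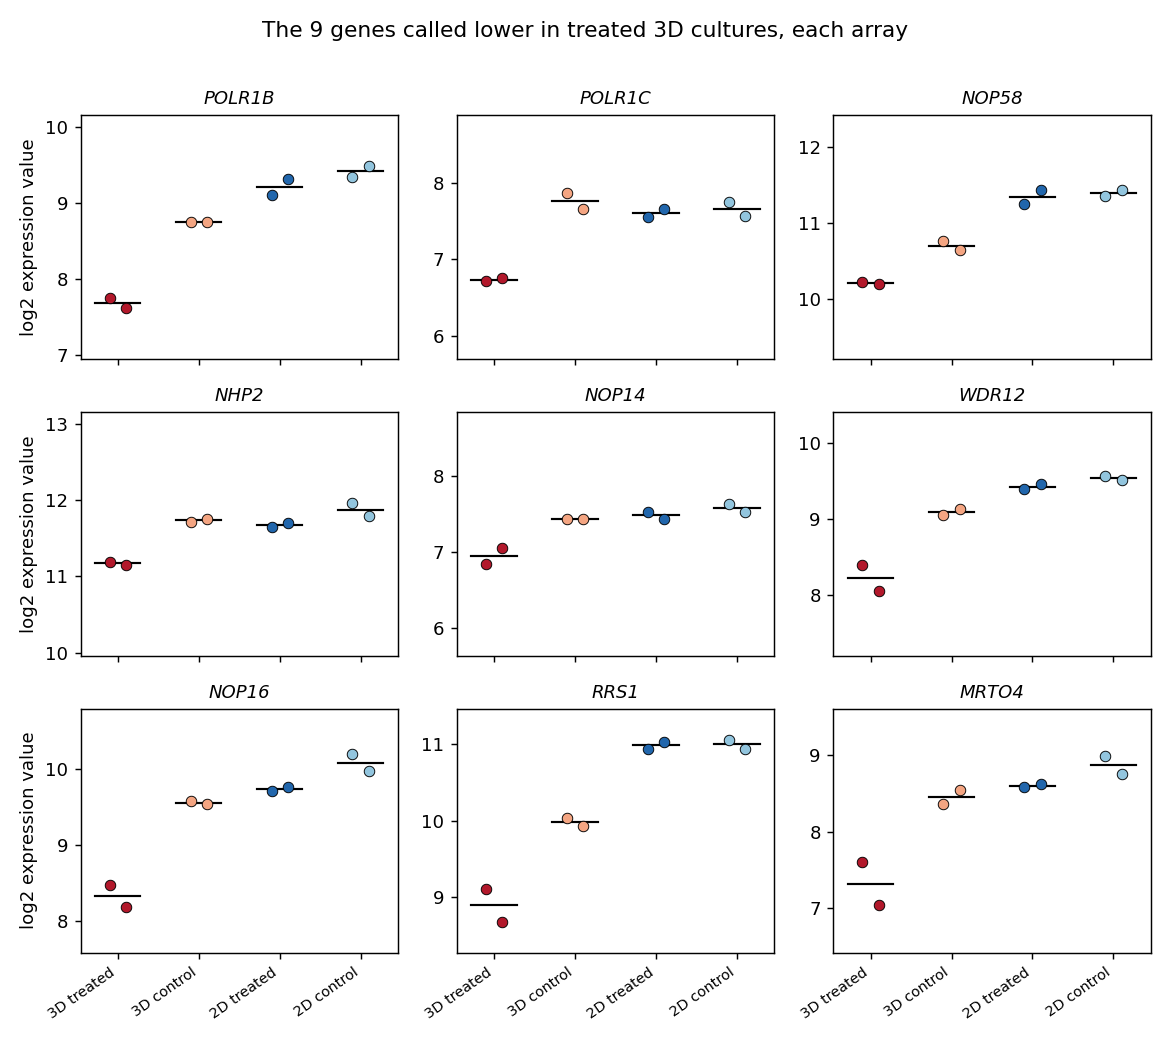
Log2 expression values (y axis, the same span in each panel) of the 9 genes called lower in 3D treated cultures, by group (x axis). Points are arrays, 2 per group, and bars are group means. In each panel both 3D treated arrays lie below all 6 other arrays.

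Among the polymerase I genes the fall was in POLR1B, the second-largest subunit, and POLR1C, a subunit shared with RNA polymerase III. POLR1B had 7.75 and 7.63 in 3D treated arrays, 8.75 and 8.75 in 3D control arrays, 9.11 and 9.32 in 2D treated arrays and 9.34 and 9.48 in 2D control arrays. Both 3D treated values lie below every other array. The difference from 3D control was -1.06 ± 0.09 (SE, n = 2 arrays per group, limma adjusted p = 0.009), a 2.08-fold decrease with a 95% interval of -1.31 to -0.80. POLR1C had 6.71 and 6.76 in 3D treated arrays, against 7.88 and 7.66 in 3D control arrays, and lay between 7.56 and 7.75 in the 2D arrays. For POLR1C, then, the 3D treated arrays stand apart, whereas the range of 3D control overlaps that of 2D control and lies just above that of 2D treated. Its difference was -1.03 ± 0.10 (adjusted p = 0.011). The other 4 genes of this group did not pass the test. RRN3, which carries polymerase I to the promoter, differed by -0.63 (adjusted p = 0.095), and UBTF, the upstream binding factor that opens ribosomal DNA, by -0.62 (adjusted p = 0.073). POLR1A, the largest subunit, differed by -0.30 (adjusted p = 0.47) and POLR1E by -0.10 (adjusted p = 0.80).

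Large subunit assembly held 4 of the 9 genes that fell, out of 10 measured, and its median difference of -0.72 was the lowest of the 5 role groups. NOP16, a nucleolar protein of early large-subunit particles, had 8.47 and 8.19 in 3D treated arrays, 9.58 and 9.53 in 3D control arrays, 9.71 and 9.77 in 2D treated arrays and 10.19 and 9.97 in 2D control arrays. The groups of 3D arrays do not overlap, and the difference of -1.23 ± 0.13 (adjusted p = 0.012) is the largest decrease among the 34 genes. Of its other probe sets, the brightest differed by -1.15 (limma adjusted p = 0.024). The dimmer ones differed by 1.18 (adjusted p = 0.37) and 0.17 (adjusted p = 0.68). With the mean over probe sets, NOP16 (adjusted p = 0.43) and WDR12 lost their calls. MRTO4, which occupies the future P-stalk site of the subunit until late in assembly, differed by -1.14 (adjusted p = 0.048), but its 3D treated arrays were far apart, at 7.60 and 7.03, against 8.37 and 8.54 in 3D control arrays. RRS1, which helps to bring the 5S ribonucleoprotein into the particle, differed by -1.09 (adjusted p = 0.026). WDR12 differed by -0.86 (adjusted p = 0.024), whereas PES1, its partner in the PeBoW complex, differed by -0.22 (adjusted p = 0.31). Both act in maturation of the large subunit, and the third partner, BOP1, was not measured. The remaining 6 values were all negative, from -0.79 for GRWD1, a chaperone of a ribosomal protein, to -0.18 for BRIX1, and GRWD1 had 6.45 and 5.35 in its pair of 3D treated arrays.

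Among the snoRNP proteins 2 of 7 fell, with a group median of -0.24, and among the small subunit factors 1 of 8, with a group median of -0.15. NHP2, a core protein of the H/ACA particles that guide pseudouridylation, had 11.19 and 11.16 in 3D treated arrays, against 11.72 and 11.76 in 3D control arrays. These ranges do not overlap, and the difference was -0.57 ± 0.06 (adjusted p = 0.014). NOP58, a core protein of the C/D particles that guide 2'-O-methylation, differed by -0.49 (adjusted p = 0.032). The other 5 measured snoRNP genes were not called, among them FBL, the methyltransferase fibrillarin (-0.27, adjusted p = 0.17), and GAR1, an H/ACA partner of NHP2 (0.13, adjusted p = 0.66). NOP14, a component of the small subunit processome, was the called gene of the 8 small subunit factors, with 6.85 and 7.05 in 3D treated arrays, against 7.44 and 7.43 in 3D control arrays. Its difference was -0.49 ± 0.08 (adjusted p = 0.037). The 3 abundant nucleolar proteins were not called. Nucleolin (NCL) differed by -0.37 (adjusted p = 0.10), nucleophosmin (NPM1) by -0.01 with a 95% interval of -0.14 to 0.12, and the helicase DDX21 by 0.32 (adjusted p = 0.19).

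The count of 9 changed with the fit. It was 2 in a fit of the 4 arrays of the comparison alone, 2 without either 3D control array, 4 without either 2D control array and 6 without 3D treated replicate 2. Without a 3D control array the 2 genes are 5.88% of the 34, against 6.78% or 7.12% of brighter genes called lower, and without a 2D control array the 4 genes are 11.8%, against 11% of brighter genes, so in these fits the share of the 34 is at that of brighter genes. In the fit of 4 arrays it is 5.88% against 2.71%, and without 3D treated replicate 2 it is 17.6% against 10.1%. POLR1B and POLR1C were called in each of the 8 fits that left out an array. NOP16 lost its call without either 3D control array, and NHP2 without either of these or 3D treated replicate 2, while MRTO4, NOP14, NOP58, RRS1 and WDR12 kept theirs in 1 or 2 of the 8 fits. In the fit of 4 arrays alone, POLR1B and POLR1C lost their calls, and NHP2 was the 1 of the 9 genes that kept its call. The other gene called in that fit is outside the 9. Of 10 further bright probe sets of the 9 genes, 6 had the same sign, of which 3 were called, and 0 were called in the opposite direction.

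**Figure D2:**
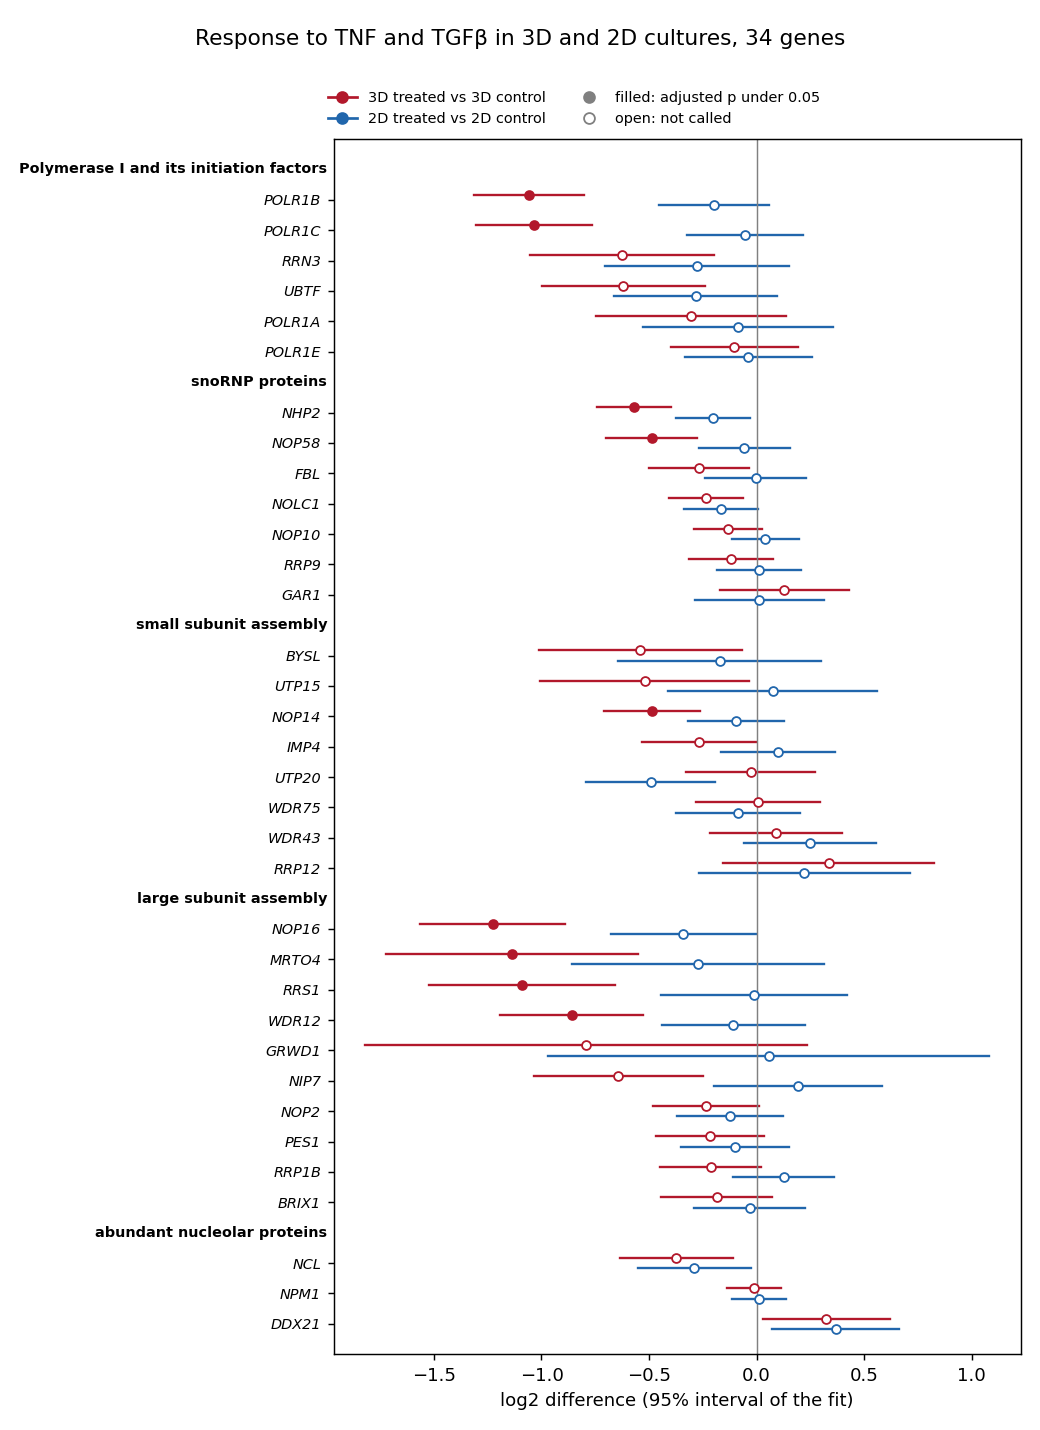
Log2 difference with its 95% interval (x axis) for the 34 genes (y axis, grouped by role) in 3D treated against 3D control arrays (red) and 2D treated against 2D control arrays (blue). Filled points are called, 9 in 3D and 0 in 2D, and the red points of polymerase I and large subunit genes reach furthest to the left.

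In monolayers the same cytokines left no member past the test. Of the 34 genes, 0 were called higher and 0 lower by limma, against 0.121% higher and 0.0759% lower among all genes. Among brighter genes 0.182% were higher and 0.111% lower. At an unadjusted p under 0.05 the counts were 1 higher and 4 lower, against 5.01% higher and 5.73% lower among all genes. That unadjusted share is not given for brighter genes. The median difference was -0.06, against -0.01 for brighter genes. Of genes called in spheroids, POLR1B differed by -0.20, POLR1C by -0.06, RRS1 by -0.01 (95% interval -0.45 to 0.42) and NOP16 by -0.34. The largest decrease of the 34 in monolayers was that of the dim gene UTP20, at -0.49 (95% interval -0.79 to -0.19). The largest increase was that of DDX21, at 0.37 (95% interval 0.07 to 0.66). The ordinary t statistics of the same fit called 1 gene lower, which is 2.94% of the 34, against 3.53% of brighter genes.

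The difference between the 3D and 2D responses was tested as such. By limma 0 of the 34 genes were called in either direction, against 1.32% higher and 1.94% lower among all genes. Among brighter genes 1.96% were higher and 2.98% lower. At an unadjusted p under 0.05 the counts were 11 lower and 1 higher, against 14.4% lower and 7.57% higher among all genes. All genes include dim ones, and the unadjusted share of brighter genes is not given here. Of the 34 values 30 were negative, with a median of -0.30 against -0.12 for brighter genes. Here too the share of brighter genes with a negative value is not given. POLR1C had the smallest adjusted p, 0.058, with a difference between responses of -0.98 ± 0.14 (SE). The next was POLR1B, at -0.86 (adjusted p = 0.067). RRS1 differed by -1.08 (adjusted p = 0.11) and NOP16 by -0.89 (adjusted p = 0.10). This count moved with the settings, with 5 genes lower after dim probe sets were filtered out, 5 by ordinary t statistics, 4 with arrays scaled to their 75th percentile and 5 without 3D treated replicate 1. As shares of the 34 these are 14.7%, 14.7%, 11.8% and 14.7% lower, against 10.8%, 13%, 6.9% and 6.73% of brighter genes under the same settings. No member is therefore shown to respond differently in 3D and 2D cultures by the main test.

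Spheroids without cytokines were compared with monolayers without cytokines. Of the 34 genes, 9 were lower in 3D control arrays and 1 was higher, against 4.9% lower and 5.77% higher among all genes, and 7.61% lower and 8.93% higher among brighter genes. The median was -0.20, against 0.00 for brighter genes. POLR1A had 4.79 and 4.82 in 3D control arrays, against 6.23 and 6.21 in 2D control arrays, a difference of -1.42 ± 0.16 (SE, adjusted p = 0.023). This is the largest decrease of the 34 in this comparison, and the ranges do not overlap. The other probe sets of POLR1A, which are dimmer, differed by -0.59 (limma adjusted p = 0.73) and -0.37 (adjusted p = 0.59). NOP2, a methyltransferase of the large subunit RNA, had 8.19 and 8.32 in 3D control arrays, against 9.49 and 9.60 in 2D control arrays. Its difference was -1.29 ± 0.09 (adjusted p = 0.010), and it was called in each of the 8 fits that left out an array.

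The other genes lower in 3D control than in 2D control arrays were spread over the roles. NOP58 had 10.76 and 10.65 in 3D control arrays, against 11.35 and 11.44 in 2D control arrays, and differed by -0.69 (adjusted p = 0.023). NOLC1, a nucleolar phosphoprotein that chaperones snoRNPs, differed by -0.45. Among small subunit processome genes UTP20 differed by -0.81 (adjusted p = 0.030) and WDR43 by -0.77. UTP20 is the dimmest of the 34, at 2.60 and 2.70 in 3D control arrays, against 3.46 and 3.47 in 2D control arrays, close to the lowest value of the scale. NCL differed by -0.63 (adjusted p = 0.040), with 12.66 and 12.60 in 3D control arrays, against 13.37 and 13.15 in 2D control arrays. RRS1 differed by -1.02 and POLR1B by -0.67. POLR1E, a subunit of the polymerase I heterodimer, was the gene called higher, with 8.82 and 9.01 in 3D control arrays, against 8.24 and 8.30 in 2D control arrays (0.65 ± 0.11, adjusted p = 0.046). Its other bright probe set differed by -0.39 (limma adjusted p = 0.11). Of 8 further bright probe sets of the 10 genes called here, 7 had the same sign and 0 were called.

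Of the 10 genes called in control cultures, POLR1A alone kept its call in a fit of those 4 arrays, and NOP2 lost it. Here too the count of lower genes changed with the fit. It was 1 in a fit of the 4 arrays alone, 1 without either 3D control array, 2 without either 2D control array, 4 without either 3D treated array and 5 without either 2D treated array. As shares of the 34 these are 2.94% (4 arrays alone, against 0.908% of brighter genes), 2.94% (against 2.45% or 1.86%), 5.88% (against 3.61% or 2.79%), 11.8% (against 4.03%) and 14.7% (against 3.6%). POLR1A, POLR1B, NOP58, RRS1, UTP20 and WDR43 kept their calls in 2 of the 8 fits that left out an array, and NCL, NOLC1 and POLR1E in 0.

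**Figure D3:**
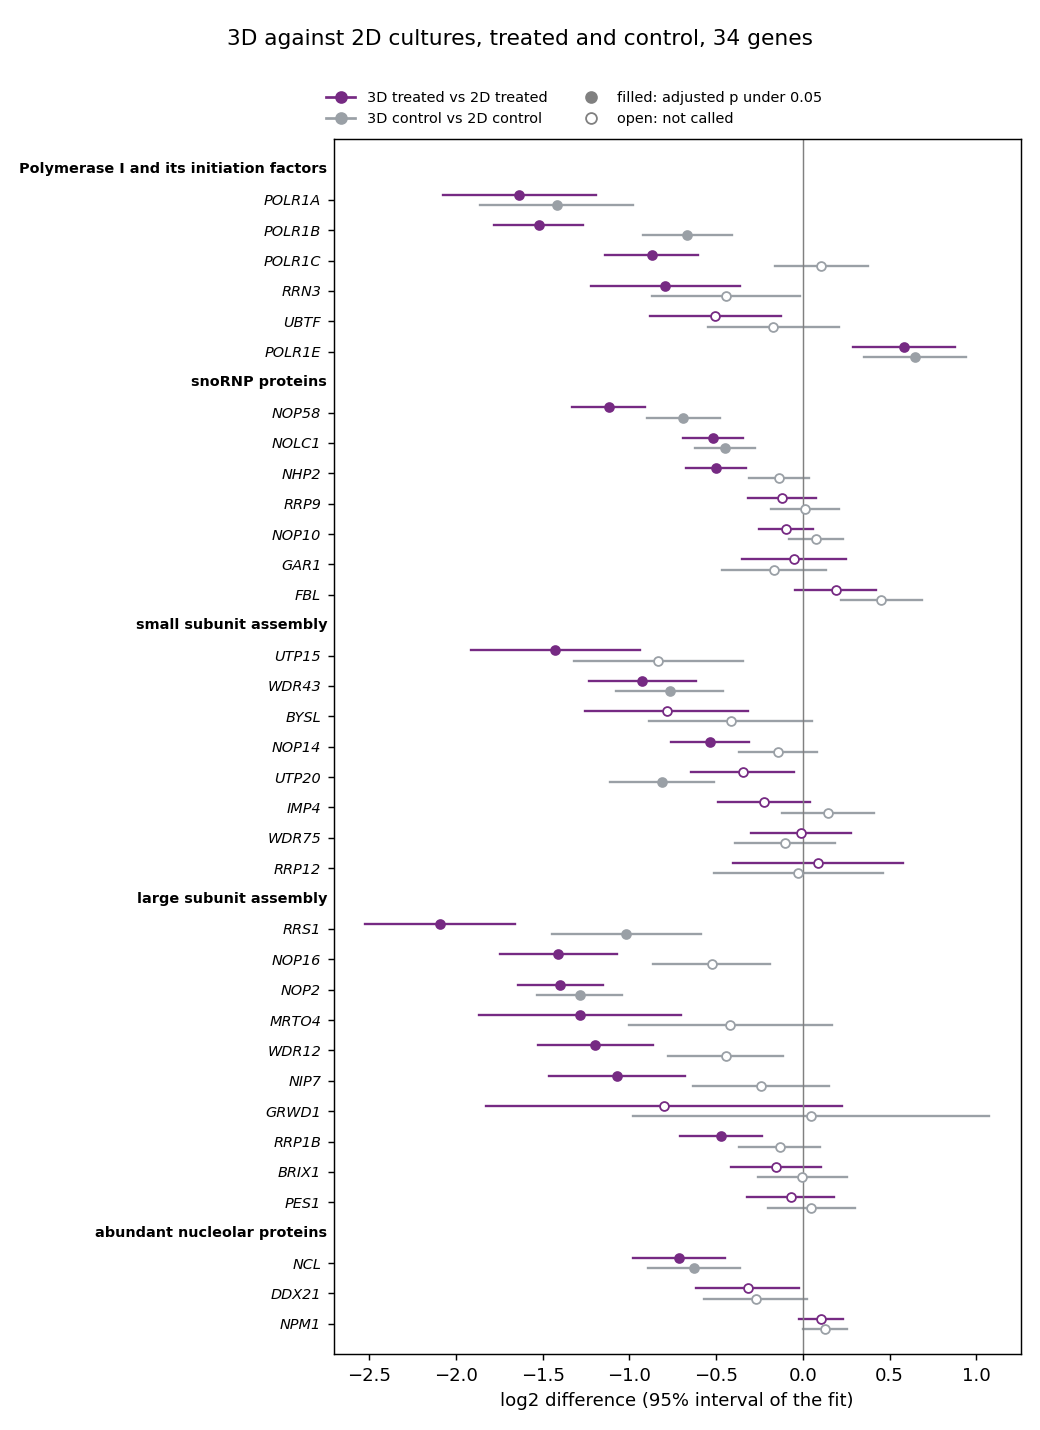
Log2 difference with its 95% interval (x axis) for the 34 genes (y axis, grouped by role) in 3D treated against 2D treated arrays (purple) and 3D control against 2D control arrays (grey). Filled points are called, 18 lower and 1 higher in treated cultures, 9 lower and 1 higher in control cultures.

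Among cytokine-treated cultures 18 of the 34 genes were lower in spheroids than in monolayers and 1 was higher, against 14.5% lower and 9.06% higher among all genes, and 22.7% lower and 13.9% higher among brighter genes. The median was -0.53, against -0.07 for brighter genes. RRS1 had 9.11 and 8.68 in 3D treated arrays, 10.04 and 9.93 in 3D control arrays, 10.94 and 11.04 in 2D treated arrays and 11.06 and 10.94 in 2D control arrays. All 4 spheroid arrays lie below all 4 monolayer arrays, and within spheroids both treated arrays lie below both controls. Its difference between treated cultures, -2.09 ± 0.16 (SE, adjusted p = 0.005), is a 4.27-fold decrease and the largest of the 34.

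Large subunit assembly held 7 of the 18 lower genes and polymerase I 4. Besides RRS1, NOP16 differed by -1.41, NOP2 by -1.40, MRTO4 by -1.28, WDR12 by -1.20, NIP7 by -1.07 and RRP1B by -0.47. POLR1A had 4.73 and 4.26 in 3D treated arrays, against 6.08 and 6.19 in 2D treated arrays, a difference of -1.64 (adjusted p = 0.008). Its other probe sets, which are dimmer, differed by -0.60 (limma adjusted p = 0.63) and -0.33 (adjusted p = 0.51). POLR1B differed by -1.52, POLR1C by -0.87 and RRN3 by -0.79. UTP15, of the small subunit processome, had 7.06 and 6.77 in 3D treated arrays, against 8.46 and 8.23 in 2D treated arrays. The difference of -1.43 ± 0.18 (adjusted p = 0.013) leads the 3 small subunit genes, with WDR43 (-0.93) and NOP14 (-0.53). Among snoRNP genes NOP58 differed by -1.12 (adjusted p = 0.004), with 10.23 and 10.20 in 3D treated arrays, against 11.25 and 11.43 in 2D treated arrays, followed by NOLC1 (-0.52) and NHP2 (-0.50). NCL differed by -0.71 (adjusted p = 0.016), with 12.20 and 12.31 in 3D treated arrays, against 12.90 and 13.04 in 2D treated arrays. Of the 19 genes called in treated cultures, WDR43 alone kept its call in a fit of those 4 arrays.

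Of 18 further bright probe sets of the 19 genes called in treated cultures, 15 had the same sign, of which 6 were called, and 0 were called in the opposite direction. Those of NOLC1 differed by -0.19 and -0.18 and were not called. With the mean over probe sets, NOP16, WDR12, POLR1E and RRP1B lost their calls. POLR1E was again the gene that was higher, with 8.80 and 8.82 in 3D treated arrays, against 8.10 and 8.36 in 2D treated arrays (0.58 ± 0.11, adjusted p = 0.034). It was called in 1 of 8 fits that left out an array. RRP1B turned to 0.88 (adjusted p = 0.10) when represented by its probe set with the largest change, and the count of 18 lower genes became 1 in a fit of the 4 arrays alone (2.94%, against 1.48% of brighter genes) and 11 without 2D treated replicate 2 (32.4%, against 11.4%). In the fits that left out an array, POLR1A, POLR1B, NOP2, NOP16, NOP58, NOLC1, RRS1 and WDR12 kept their calls throughout. UTP15 lost its call without 2D treated replicate 1. NCL lost its call without either 3D control array, 3D treated replicate 1 or 2D treated replicate 2. POLR1C, NHP2, NIP7, NOP14 and WDR43 lost their calls in some of these fits, and MRTO4, RRN3 and RRP1B in most of them.

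Set side by side, the comparisons show which groups each gene separates. They share arrays, so their calls are not independent. Of the 9 genes lower in 3D treated than in 3D control arrays, 3 (POLR1B, NOP58 and RRS1) were also called lower in 3D control than in 2D control arrays. The other 6, among them POLR1C and NHP2, were not called in the control comparison. Another 6 genes, POLR1A, NOP2, UTP20, WDR43, NOLC1 and NCL, were lower in control spheroids without being called in the response of spheroids. The mean of the 3D treated arrays was the lowest of the 4 group means for 26 of the 34 genes (76.5%), against 28% of all genes and 43% of brighter genes. The exceptions were POLR1E and FBL, lowest in 2D treated arrays, NPM1, lowest in 2D control arrays, and GAR1, WDR43, WDR75, RRP12 and DDX21, lowest in 3D control arrays. As the mean deviation of the 34 genes from their own means over all arrays, the 3D treated arrays lay at -0.39 and -0.48, the 3D control arrays at -0.03 and -0.05, the 2D treated arrays at 0.16 and 0.26 and the 2D control arrays at 0.28 and 0.26.

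The promoters of these genes were searched for CACGTG, the canonical E-box that MYC with its partner MAX and other factors of the same family can bind, because the genes are known MYC targets. The windows run from 250 bases before to 50 after each RefSeq start site (GRCh38.p14), and 32 of the 39 genes had at least 1. The motif reads the same on both strands. It was present in 14 of the 32 genes (43.8%), against 8.77% of the 27305 genes with a window. That baseline is wider than the 19775 genes on the array and was not limited to brighter genes. The part of this in the contrast was not tested. By role it was present in 5 of 7 small subunit genes, 4 of 7 snoRNP genes, 3 of 9 large subunit genes, 2 of 4 abundant nucleolar genes and 0 of 5 polymerase I genes. It was present in 2 of 7 genes called lower in 3D treated against 3D control arrays that had a window, and in 11 of 21 that were measured and not called. The stretches below run from 70 bases before to 30 after the start site, 5′ to 3′ on the gene's strand, with the motif in capitals. They show the 2 called genes with the motif (MRTO4 and NOP14), 2 called genes without it (POLR1C and NOP16) and 2 genes that have it and were not called (FBL and PES1).
MRTO4, chr1:19251735-19251834, plus strand: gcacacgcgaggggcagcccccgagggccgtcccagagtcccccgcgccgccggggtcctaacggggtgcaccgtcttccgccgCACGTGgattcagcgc
NOP14, chr4:2963377-2963476, minus strand: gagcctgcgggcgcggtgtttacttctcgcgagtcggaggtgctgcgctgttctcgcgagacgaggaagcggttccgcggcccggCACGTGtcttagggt
POLR1C, chr6:43517019-43517118, plus strand: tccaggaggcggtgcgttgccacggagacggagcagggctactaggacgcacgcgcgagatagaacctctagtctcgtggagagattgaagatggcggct
NOP16, chr5:176388569-176388668, minus strand: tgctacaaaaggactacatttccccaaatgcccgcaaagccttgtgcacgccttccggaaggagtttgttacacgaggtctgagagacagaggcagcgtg
FBL, chr19:39846350-39846449, minus strand: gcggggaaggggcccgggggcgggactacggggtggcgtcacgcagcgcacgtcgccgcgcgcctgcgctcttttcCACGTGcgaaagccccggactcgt
PES1, chr22:30591881-30591980, minus strand: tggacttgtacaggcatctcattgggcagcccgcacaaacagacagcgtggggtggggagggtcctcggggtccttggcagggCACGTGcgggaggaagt
Counted from the start site as base 1, the motif begins at base 15 in MRTO4, 16 in NOP14, 7 in FBL and 14 in PES1. A match describes these letters, and binding was not measured here.

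Other genes of the same pathway, from lists outside the 39, were counted in the 3D treated against 3D control comparison, in which 10.8% of all genes were lower and 5.53% higher, and 16.8% of brighter genes lower and 8.42% higher. Of 37 other small subunit factors, 10 fell and 2 rose, with a median of -0.38. WDR36, a processome subunit, differed by -1.06 (adjusted p = 0.006) and the acetyltransferase NAT10 by about as much (adjusted p = 0.024), whereas the helicase DDX10 was higher by 1.02. Of 37 other large subunit factors, 10 fell and 0 rose, with a median of -0.23. RRP15 differed by -1.19 (adjusted p = 0.011) and the helicase DDX31 by -1.38. The RNA exosome, which trims ribosomal RNA precursors from their 3' ends, had 6 of 13 genes lower and 0 higher, led by EXOSC2 (-1.93, adjusted p = 0.015) and EXOSC5 (-1.31, adjusted p = 0.003). Of 15 other subunits and promoter factors of polymerase I, 3 fell and 0 rose, and these 3 (POLR2E, POLR2F and POLR2L) are subunits shared with other polymerases.

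The ribosomal proteins lie near the top of the scale of these arrays. Of 52 measured, 47 had a mean over the arrays above 14, against 1 of the 34 ribosome biogenesis genes, so their counts are not a measure of stability. By limma 0 of 21 small subunit and 0 of 31 large subunit ribosomal proteins passed in either direction in this comparison, with medians of -0.04 and -0.01. RPLP2 and RPL27A stood out with differences of 3.05 (adjusted p = 0.21) and 2.42 (adjusted p = 0.076). Ribosomal proteins have many processed pseudogenes whose RNA the same probes could take up, which also limits these values.

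**Figure D4:**
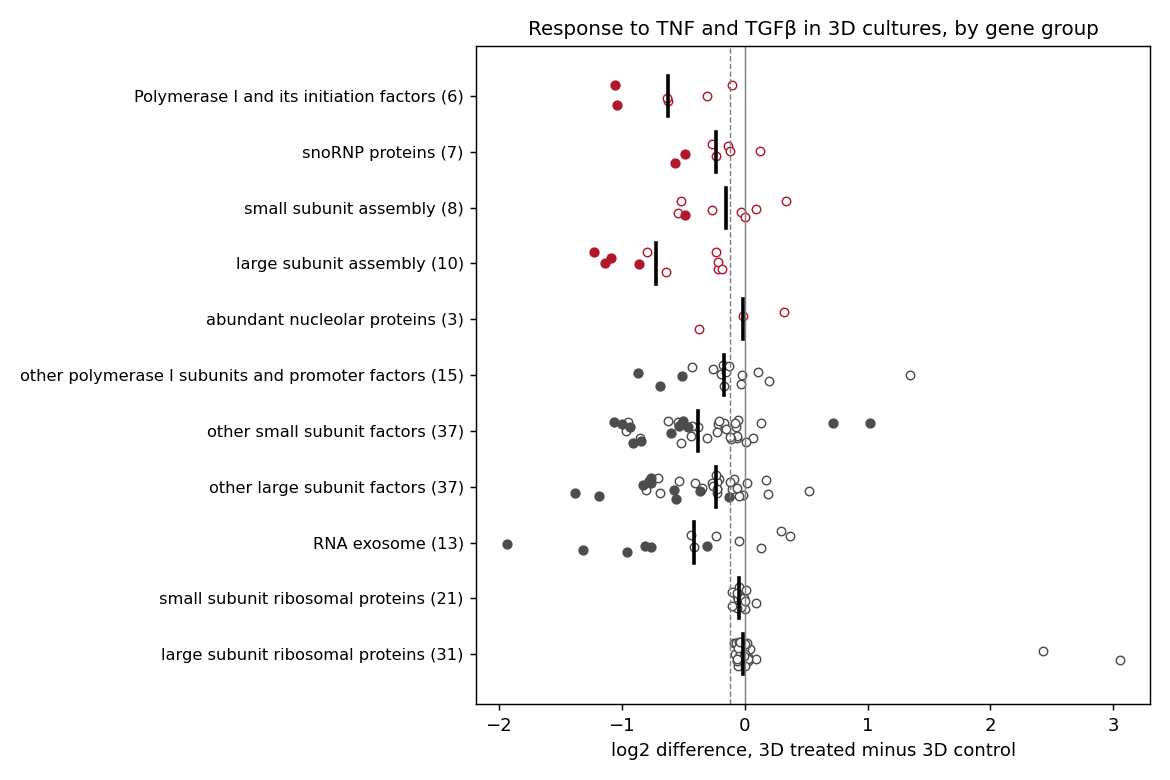
Log2 difference between 3D treated and 3D control arrays (x axis) for the 5 role groups of the 34 genes (red) and 6 other lists (grey), with the number of genes measured in brackets. Points are genes, filled where called, black bars are list medians and the dashed line is the median of brighter genes, -0.12. Ribosomal proteins, most of them near the top of the scale, gather near 0 except RPL27A and RPLP2, while assembly factors spread to the left.

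Array scaling shifts every value by a constant. Scaling arrays to their 75th percentile raised all differences between 3D treated and 3D control arrays by 0.16, which puts the median of the 34 genes at -0.12 and that of brighter genes at 0.05, a gap of -0.17 as before. All 9 genes stayed called lower under it, 12 (35.3%) were lower in all and 1 was higher, and of brighter genes 24.4% were then lower and 25.7% higher.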

How the data were processed

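Expression was measured on 8 Affymetrix arrays, 2 per group. The deposited log2 values come from GCRMA, run by the authors, a method that removes background, normalizes between arrays and gives 1 value per probe set; no version of GCRMA is given, and the submitters' processing notes name limma 3.6.9. Depth does not apply to arrays, whose small number limits the precision. Of 54675 probe sets, 62 Affymetrix controls were left out and 54613 tested, and no further normalization was applied. Probe sets were named through the platform annotation, which can be old, in which 41091 name 1 gene, 1801 several and 11721 none.

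Group means were fitted to all 8 arrays with limma 3.58.1 (lmFit, eBayes) in R 4.3.3, with 4 residual degrees of freedom. P-values were adjusted by the Benjamini-Hochberg method over every probe set tested. The fit was tested on simulated data. Comparisons were 3D treated with 3D control, 2D treated with 2D control, their difference, and 3D with 2D within control and within treated cultures. Alternatives were replicate number as a block, an intensity trend, quantile normalization, 75th percentile scaling, a filter on dim probe sets, the probe set with the largest change or the mean over probe sets as a gene's value, p-values adjusted over 1 probe set per gene, 4 arrays only, ordinary t statistics, leaving out each array, and a 2-fold minimum. The members, lists and alternatives were chosen with earlier results of these data known. Array values and full statistics were to be given, per comparison and role group, for the called genes with the largest increase and decrease; POLR1C, MRTO4 and GRWD1 were given array values in the 3D response, and other called genes were named with their differences, after their values were seen. Promoter windows are RefSeq's (GRCh38.p14), and Python 3.11.15 with matplotlib 3.10.9 was used for the plots. Histone data of the study were not analysed here.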

Additional observations from a re-analysis of the deposited data

How the results depend on the processing

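Counts below are of the 34 genes. The share of all genes called moves with the setting too. In the 3D response 16.8% of brighter genes were lower in the main fit. This share was 26.4% after dim probe sets were filtered out, 12.6% by ordinary t statistics and 2.71% in the fit of 4 arrays. It is not given here for the block, the 2-fold minimum, the intensity trend or the choices of probe set. Counts under those settings are therefore not a result about the 34 genes alone. With replicate number as a block, 5 genes were lower in 3D treated against 3D control arrays, and 1 was lower and 0 higher in 3D control against 2D control arrays; same-numbered arrays of different groups had deviations correlated at 0.28 (2D treated and 2D control) and -0.01 to 0.09 otherwise, over 28188 brighter probe sets, so the numbers were not taken as pairs. Fitting 4 arrays alone left 2 lower (3D response), 1 lower and 0 higher (control cultures) and 1 lower and 0 higher (treated cultures). Asking for 2-fold left 5 lower, 3 lower and 0 higher, and 10 lower and 0 higher in the same order. Scaling to the 75th percentile gave medians of -0.12 (3D response) and -0.30 (treated cultures) and 1, 2 and 3 genes higher in the 3D response, control cultures and treated cultures. As shares of the 34 these counts are 2.94%, 5.88% and 8.82%, against 25.7%, 17.2% and 37.2% of brighter genes. In the difference between responses, 4 genes were lower with that scaling, 5 after filtering dim probe sets, 5 by ordinary t statistics, 2 with adjustment over 1 probe set per gene, and 1 with an intensity trend or the mean over probe sets. In control cultures 2 genes were higher with the filter, with 1 probe set per gene and by ordinary t statistics, and the median was -0.34 with the probe set of largest change. Of brighter genes 15.5% (filter) and 14.7% (ordinary t statistics) were higher there, against 5.88% of the 34. Ordinary t statistics called 1 gene lower in 2D (2.94%, against 3.53% of brighter genes). With the mean over probe sets 0 genes were higher in treated cultures, where RRP1B turned to 0.20, and to 0.88 with its probe set of largest change. Why these settings differ was not tested.

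Leaving out each array in turn gave 2 to 10 genes lower and 0 to 1 higher in the 3D response, with medians of -0.33 to -0.29, and 0 to 2 lower in the 2D response, with medians of -0.13 to -0.03. It gave 0 to 5 lower in the difference between responses, with medians of -0.31 to -0.18, 1 to 5 lower and 0 to 1 higher in control cultures, with medians of -0.25 to -0.19, and 11 to 18 lower and 0 to 1 higher in treated cultures, with medians of -0.61 to -0.51. These fits take the spread of the lone array from the groups that keep both. The share of all genes called also moves between them, so the counts alone are not a result about the 34 genes. The median of the 34 genes was negative in all 5 comparisons under every setting run. These settings reuse the same arrays. As deposited, the median of brighter genes was negative too, except in control cultures, where it was 0.00. With 2 arrays per group, a gene not called is not shown to be unchanged.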

Other observations

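In 3D control against 2D control arrays, 1 of 21 small subunit and 6 of 31 large subunit ribosomal proteins were higher (4.76% and 19.4%, against 5.77% of all genes and 8.93% of brighter genes) and 0 were lower, with medians of 0.16 and 0.20, against 0.00 for brighter genes and -0.20 for the 34 ribosome biogenesis genes. The called genes were RPS9 (0.65), RPL3 (0.26), RPL11 (0.46), RPL14 (0.41), RPL22 (0.34), RPL35A (0.37) and RPL36 (1.13, limma adjusted p = 0.020). In 3D treated against 2D treated arrays the same counts were 1 of 21 and 6 of 31 higher and 0 lower, against 9.06% of all genes and 13.9% of brighter genes higher. Most of these probe sets lie near the top of the scale.

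MYC, the transcription factor named above, had 8.60 and 9.13 in 3D treated arrays, 9.80 and 9.86 in 3D control arrays, 10.21 and 10.63 in 2D treated arrays and 10.75 and 11.08 in 2D control arrays. The groups do not overlap, and MYC differed by -0.97 in 3D treated against 3D control arrays (limma adjusted p = 0.11) and by -1.56 in 3D treated against 2D treated arrays (adjusted p = 0.025). Its paralog MYCN was higher by 2.87 in 3D treated than in 3D control arrays (adjusted p = 0.020), with 10.07 and 9.93 in 3D treated arrays, against 6.74 and 7.51 in 3D control arrays. Of 15 proliferation genes, 2 fell (PCNA by 1.10 and MCM4 by 0.74 on the log2 scale) and MCM7 rose by 0.96 in 3D treated against 3D control arrays. These shares, 13.3% lower and 6.67% higher, are near the 10.8% and 5.53% of all genes. Of brighter genes 16.8% were lower and 8.42% higher. MKI67, PLK1 and BUB1 of this list lay close to the lowest value of the scale, which limits these shares. The part of any of these genes in the ribosome biogenesis results was not tested.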
